A study of Rattus norvegicus with 16 samples.

Results

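The genes described here are 9 members of the system that cleaves extracellular matrix, namely the matrix metalloproteinases Mmp2, Mmp3, Mmp9, Mmp12, Mmp13 and Mmp14 and their tissue inhibitors Timp1, Timp2 and Timp3. They were chosen by symbol among the 26207 gene names on a rat expression array, and all 9 were among the 20571 genes tested. RNA came from cultures of the olfactory mucosa of male Fischer rats, sorted by flow cytometry into cells labelled CD90, p75 and TRKA, all grown under 1 protocol, and a TRKA-TGF population of TRKA cells conditioned with TGF alpha. Each population had 4 arrays, which the labels call biological replicates 1 to 4. Whether equal numbers mark the same animals was not stated. The tests treated all arrays as independent samples, so p-values set each difference against the spread between these samples within populations. The mRNA was amplified as cDNA by a global PCR, labelled with Cy3 and hybridised to 1-colour arrays. The labels name no clone, transgene or pool of animals. In such bulk samples, fewer cells of a type and less RNA per cell cannot be told apart.

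Matrix metalloproteinases are zinc-dependent proteases that are mostly secreted as inactive zymogens and activated by removal of a propeptide. Together they cleave collagens, elastin, laminin and many cell-surface proteins. TIMPs bind the active site of these enzymes and block them, and TIMP2 also takes part in the activation of the MMP2 zymogen at the cell surface by the membrane-bound MMP14. In the olfactory mucosa, glia, fibroblasts and macrophages surround axons that are renewed throughout life, and olfactory ensheathing glia are known to make metalloproteinases.

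The readout of each gene was a 60-base probe. The Mmp2 calls come from its first probe, whose letters are not shown. The probes below are shown because the results on Mmp12, Mmp3, Mmp9, Timp1, Timp3 and the second Mmp2 probe rest on hybridisation to these letters. Each is given 5′ to 3′ in lower case as the array files give it. Positions are on the rat build rn4 that the array files name.
Mmp12: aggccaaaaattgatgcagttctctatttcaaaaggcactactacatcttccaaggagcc
Mmp3: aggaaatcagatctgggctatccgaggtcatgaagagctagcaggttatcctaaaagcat
Mmp9: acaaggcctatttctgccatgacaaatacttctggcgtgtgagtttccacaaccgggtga
Mmp2, second probe: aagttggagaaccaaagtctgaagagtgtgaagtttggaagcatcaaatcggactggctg
Timp1: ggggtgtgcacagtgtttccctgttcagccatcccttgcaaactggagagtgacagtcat
Timp3: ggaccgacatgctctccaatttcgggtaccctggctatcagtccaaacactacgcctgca
The Mmp12 probe lies at chr8:4259057-4259413 (+), the Mmp3 probe at chr8:4325061-4325526 (+) and the Mmp13 probe at chr8:4168554-4168613 (+). The Mmp9 probe is at chr3:155992463-155992522 (+) and the Mmp14 probe at chr15:32503002-32503061 (+). The Mmp2 probes are at chr19:15246221-15246280 (-) and, for the second, chr19:15246805-15246864 (-). The Timp1 probe is at chrX:12542700-12543703 (-), the Timp2 probe at chr10:108311244-108311303 (-) and the Timp3 probe at chr7:19679721-19679780 (-). The stretches of Mmp12, Mmp3 and Timp1 cover 357, 466 and 1004 bases of genome for 60 bases of probe, so each match is interrupted in the genome, as by an intron. No exon annotation of this build was used here.

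RefSeq promoters on build GRCr8, 250 bases before to 50 after a transcript start, were matched for 6 of the 9 members: Mmp3, Mmp12, Mmp13, Timp1, Timp2 and Timp3. They are shown because the 3 protease genes are neighbours that share a letter match, while only Mmp12 of the 3 was called in TRKA against p75 or CD90. The letters TGAGTCA, the AP-1 motif, were searched on both strands. The capitals mark the match in the 30-base windows.
Mmp3: ggaagcaattaTGAGTCAgtttgcgggtga
Mmp12: gacatcaacagTGAGTCAtattgaggattt
Mmp13: accccaagtggTGACTCAtcactattgctc
These windows are chr8:12925199-12925228 (+), chr8:12866554-12866583 (+) and chr8:12782752-12782781 (+) of GRCr8. The match began 71 bases before the start in Mmp3, 87 in Mmp12 and 66 in Mmp13, and the 3 Timp promoters held none. Of 33469 promoters of this length, 4.63% held the motif. TATAAA, on either strand, was also in the 3 protease promoters and in none of the 3 Timp promoters (14.2% of all promoters). GGGCGG, on either strand, was in the 3 Timp promoters and in none of the 3 protease promoters (33.1% of all). These matches do not overlap. The share of G and C was 42, 46.3 and 45.3% in Mmp3, Mmp12 and Mmp13, against 61.3, 70.3 and 68.7% in Timp1, Timp2 and Timp3. For Mmp3 and Timp1 the transcript start used lies inside the outer boundary of the gene. A match is a description of letters.

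Levels below are log2 signals relative to the 75th percentile of the same array, so 0 is that percentile, and each probe is compared only with itself. The TRKA arrays stood apart over the array as a whole. Between 51.4 and 57.5% of their spots were well above background, against 66.4 to 72.4% in the other populations, their median signal was 22.8 to 39.2 against 132 to 219, and their replicates correlated at 0.777 to 0.803 against 0.884 to 0.931. The p75 and TRKA arrays were on slide 1 and the TRKA-TGF and CD90 arrays on slide 2, so slide and population cannot be told apart in 4 of the 6 comparisons. TRKA against p75 and TRKA-TGF against CD90 are within a slide, where population and slide row cannot be told apart. Among the genes of the sorted proteins, RNA followed the labels for Thy1 (CD90; 3.44 ± 0.29 SD in CD90 cells, n = 4) and Ngfr (p75; 3.16 ± 0.24 in p75 cells, n = 4), which were lower in the other populations. The labels name no cell type. The summed level of 10 macrophage markers (log2 of their summed values) was 8.73 to 9.16 in TRKA and 7.51 to 7.55 in TRKA-TGF, against 3.83 to 4.76 in CD90 and 2.22 to 3.09 in p75. All 10 were well above background on all 4 TRKA arrays, and 9 of 10 on all TRKA-TGF arrays, where Cd163 was on 0. The 10 glial markers were all on every p75 array, summing to 6.56 to 6.69, against -1.53 to 1.62 elsewhere. The 8 fibroblast markers summed to 8.85 to 9.04 in CD90 and 7.61 to 7.73 in p75. Their sums were 6.73 to 7.25 in TRKA and 2.11 to 3.88 in TRKA-TGF. All 8 were well above background on every CD90 array, against 6 in p75, 3 in TRKA and 4 in TRKA-TGF. In TRKA the sum was mostly Col1a1 at 6.89. Col1a2 read 2.44 and Col3a1 2.26 there, and the means of the other fibroblast markers were -7.63 to -3.03, with Dcn and Lum above background on 0 TRKA arrays. Smooth muscle markers were highest in CD90 (6.63 to 6.75), and the olfactory neuron list summed highest in p75 (4.16 to 4.38). That p75 sum includes Ncam1 at 3.68 and Gap43 at 2.42, each higher than in the other populations. Omp, on the same list, read -6.22 in p75 against -6.34 in CD90, -6.09 in TRKA and -4.62 in TRKA-TGF. In the same order, Tubb3 read -1.94 against -1.95, -2.02 and -2.24, and Gng8 -1.39 against -1.95, -6.93 and -6.92. The other lists spanned, over all arrays, -5.05 to 2.83 (neutrophil), -4.65 to -2.39 (lymphocyte), -0.99 to 0.83 (mast cell), -2.75 to 0.99 (epithelium) and -3.3 to 0.18 (endothelium). Of the neutrophil list, S100a8 was above background on 3 TRKA arrays and on 0 elsewhere, while Mpo and Elane were on 0 in every population, and the TRKA sums spanned -4.47 to 2.83.

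Mmp12 and Timp2 were the members called higher in the TRKA populations than in p75, Mmp2 and Timp3 those called lower in both, and Mmp14 and Timp1 were lowest in TRKA-TGF. TRKA against p75 called 5 of 9 members at an adjusted p under 0.05, with 35.7% of all tested genes called. Of these, 3 were higher and 2 lower in TRKA, beside 18.8 and 16.9% of genes. TRKA against CD90 called 4 members (34.9% of genes), 3 higher and 1 lower, beside 18.3 and 16.6%. TRKA-TGF against p75 called 7 (15.1% of genes), 2 higher and 5 lower, beside 7.97 and 7.15%. TRKA-TGF against CD90 called 5 (14.9% of genes), 1 higher and 4 lower, beside 7.72 and 7.19%. TRKA-TGF against TRKA called 3 (26.4% of genes), 0 higher and 3 lower, beside 13.5 and 12.9%. CD90 against p75 called 1 (7.25% of genes), higher in CD90, beside 3.68% higher and 3.57% lower. The median member difference was 0.33, -0.39, -1.97, -1.59, -1.04 and 0.03 in that order, beside -0.01, -0.09, 0.14, 0.15, 0.19 and 0.05 over all genes. All tests were limma fits over the 16 arrays with Benjamini-Hochberg adjustment over all genes. Of the 25 calls, 19 held under each of 27 alternatives, and the 6 that did not are named with their genes below.

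**Figure D1:**
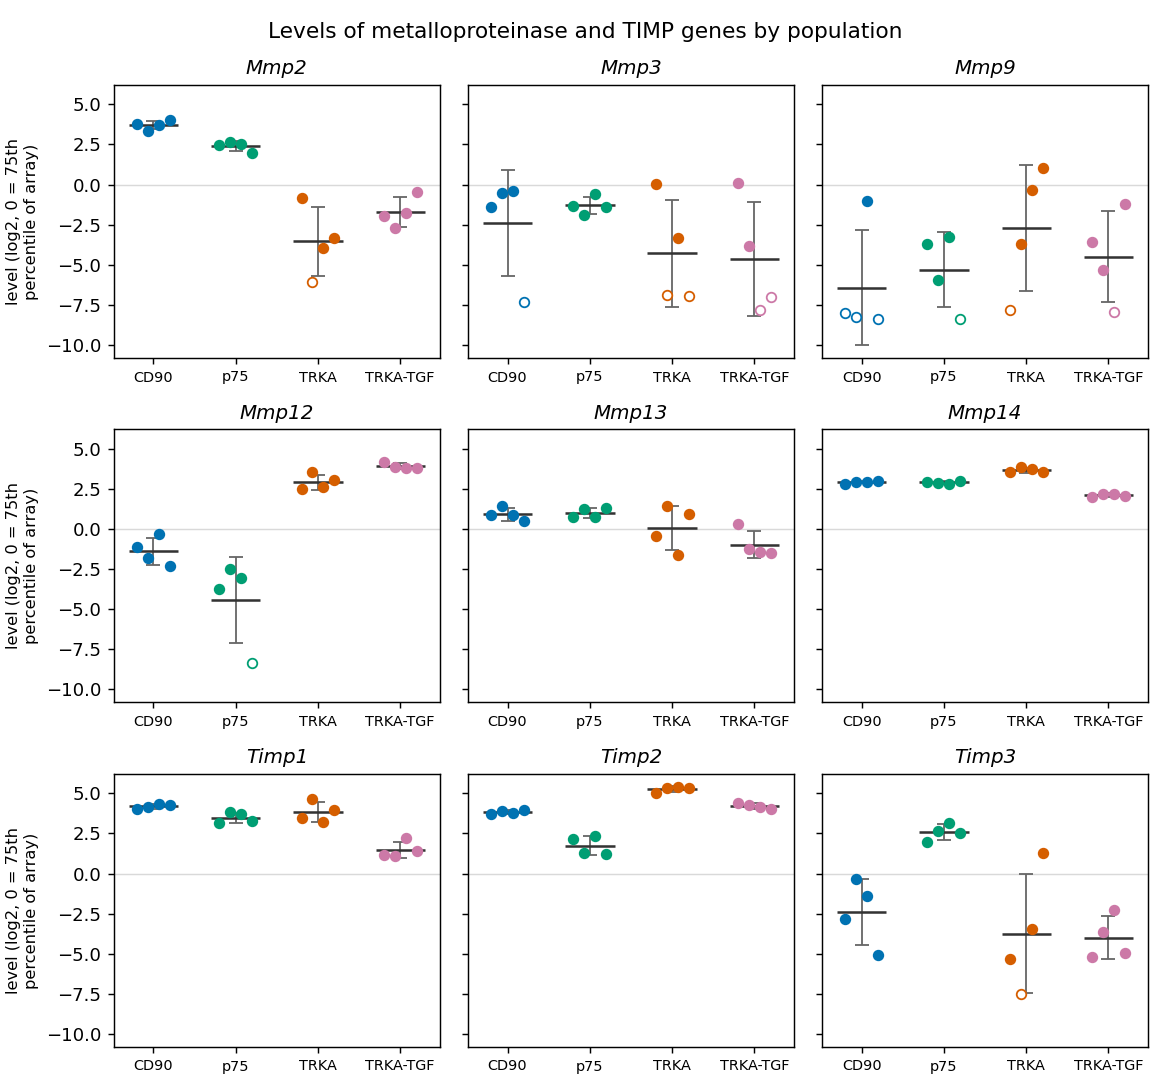
Level of each member on each array (vertical axis, log2, 0 = 75th percentile of the array) by population; each point is 1 array, open where the probe was not well above background, with the mean (line) and SD (bar) of 4. Mmp12 lies between 2.5 and 4.2 on the TRKA and TRKA-TGF arrays and at -0.34 or lower on the CD90 and p75 arrays.

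Mmp12, the macrophage elastase, was higher in both TRKA populations than in CD90 and p75 cells. Its level was 2.5, 3.54, 2.64 and 3.06 on TRKA arrays 1 to 4, and 4.2, 3.86, 3.82 and 3.81 on TRKA-TGF arrays. In CD90 cells it was -1.09, -1.79, -0.34 and -2.28, and in p75 cells -3.76, -2.49, -3.06 and -8.38, where the last array was not well above background. No TRKA or TRKA-TGF array overlapped a CD90 or p75 array. The difference was 7.36 (SE 0.97, adjusted p = 4.78e-05, limma) in TRKA against p75 and 4.31 (adjusted p = 0.00319) against CD90. For TRKA-TGF it was 8.35 (adjusted p = 3.17e-05) against p75 and 5.3 (adjusted p = 0.00165) against CD90. The differences from p75 rest partly on array 4 of p75: without it they were 6.04 and 7.03, and without array 2 they were 8 and 8.99. With normexp background correction they were 5.94 and 7.01. CD90 also read above p75 on every array, by 3.05, which did not pass (adjusted p = 0.0808) and passed under 4 of the 27 alternatives. These were quantile normalization (3.02, 0.0439), normexp (1.91, 0.016), and leaving out p75 array 2 (3.7, 0.0429) or 4 (1.73, 0.0421). TRKA-TGF read above TRKA on every array, but the difference of 0.99 (interval -1.09 to 3.07) did not pass (adjusted p = 0.493, limma). The summed macrophage markers given above were highest in the same populations, and their part in the Mmp12 level was not tested.

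Mmp2, the gelatinase that cleaves type IV collagen, ran the other way. CD90 cells read 3.75, 3.36, 3.71 and 4.03 and p75 cells 2.48, 2.65, 2.54 and 1.97. TRKA cells read -0.81, -6.06, -3.97 and -3.33, with the second array not well above background, and TRKA-TGF cells -1.94, -2.7, -1.75 and -0.47. Both CD90 and p75 lay above every TRKA and TRKA-TGF array. Mmp2 was lower in TRKA than in CD90 by a log2 difference of -7.25 (SE 0.81, adjusted p = 1.17e-05) and than in p75 by -5.95 (adjusted p = 6.51e-05). Leaving out TRKA array 1 gave -8.16 and -6.86, and leaving out TRKA array 2 gave -6.41 and -5.11. TRKA-TGF was lower than CD90 (-5.42, adjusted p = 0.00034) and p75 (-4.12, adjusted p = 0.00265). CD90 read above p75 on all arrays, but the difference of 1.3 (interval -0.44 to 3.05) did not pass (adjusted p = 0.474). It passed in a fit of only those populations (adjusted p = 0.018). TRKA-TGF against TRKA did not pass either (1.83, adjusted p = 0.116), and passed without TRKA array 1 (2.74, adjusted p = 0.0046) or with the mean of both probes (2.73, adjusted p = 0.0072). The second Mmp2 probe gave levels of 3.34 ± 0.35 in CD90, 2.02 ± 0.38 in p75, -5.27 ± 4.47 in TRKA and -1.65 ± 1.74 in TRKA-TGF (SD, n = 4), and it was above background on 1 of 4 TRKA arrays. On TRKA array 2 the probes disagreed: the second read 1.43 where the first read -6.06. By that probe, in a fit over all kept probes, TRKA was lower than CD90 (-8.61, adjusted p = 0.000834) and p75 (-7.28, adjusted p = 0.00286), and TRKA-TGF did not pass against CD90 (-4.99, adjusted p = 0.0539) or p75 (-3.66, adjusted p = 0.169).

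Mmp9, the other gelatinase, differed widely between replicates and was not called in any comparison. It was well above background on 1 CD90, 3 p75, 3 TRKA and 3 TRKA-TGF arrays. TRKA arrays read -7.81, -3.74, -0.31 and 1.02, a spread larger than any difference between group means. TRKA-TGF arrays read -3.56, -5.31, -7.95 and -1.21, and p75 arrays -3.68, -5.94, -3.3 and -8.38. In CD90 cells array 3 read -1.03 and the others -8.42 to -8.03. Adjusted p-values from limma ran from 0.206 (TRKA against CD90, 3.72) to 0.889 (CD90 against p75).

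**Figure D2:**
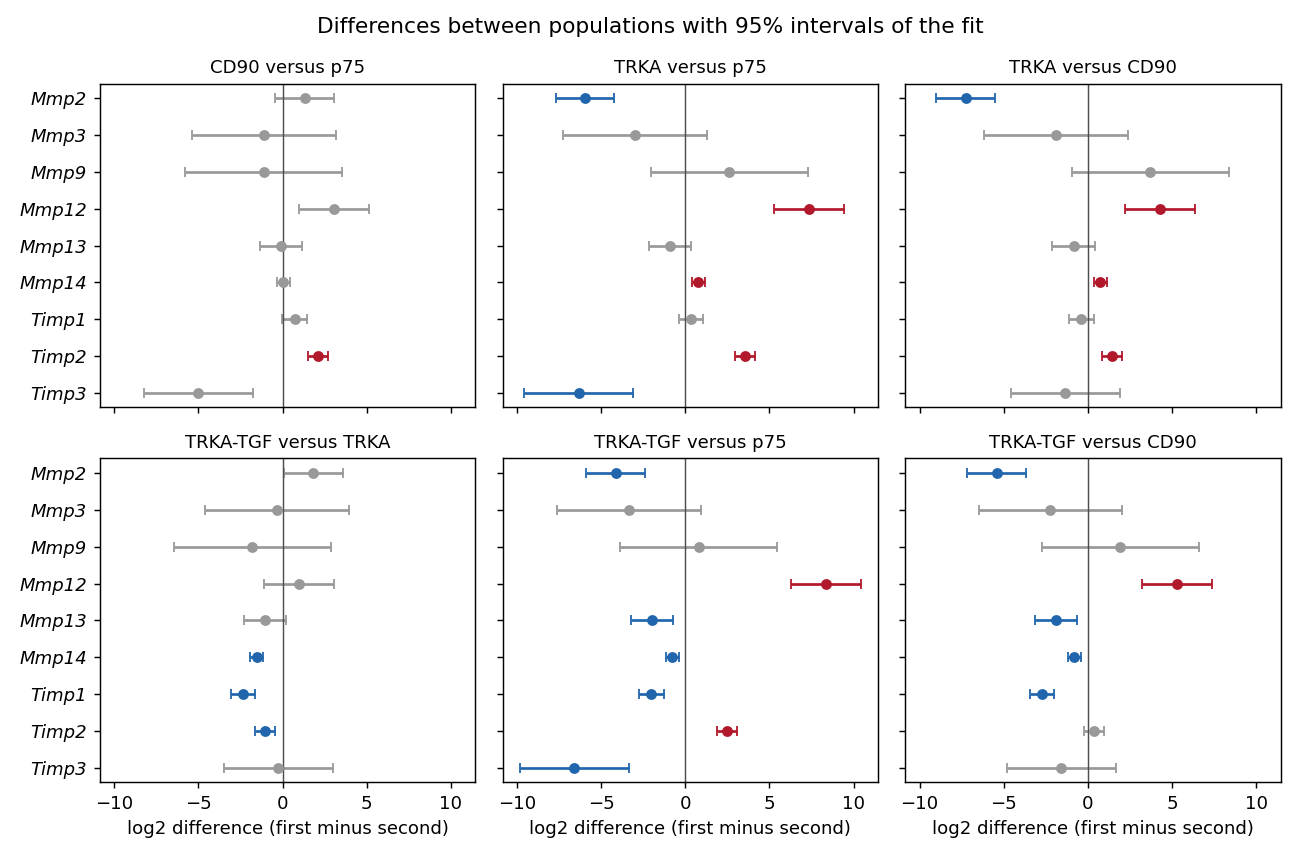
Difference of each member (horizontal axis, log2, first population minus second) in the 6 comparisons with the 95% interval of the fit; red points were called higher, blue points called lower and grey points not called. The Mmp3 and Mmp9 points are grey in all 6 panels.

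Mmp3, stromelysin 1, was likewise not called in any comparison. It was above background on all p75 arrays (-1.35, -1.93, -0.57 and -1.38), on 3 CD90 arrays (-1.37, -0.52 and -0.43, with -7.31 on the fourth) and on 2 arrays each of TRKA and TRKA-TGF. TRKA arrays read 0.03, -6.91, -3.32 and -6.98 and TRKA-TGF arrays 0.07, -3.84, -7.8 and -6.99. The populations overlapped in each of the 6 comparisons, and the lowest adjusted p was 0.261 (limma; TRKA against p75, -2.99).

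Mmp13, a collagenase of fibrillar collagen, was above background on all 16 arrays. It read 0.9, 1.46, 0.85 and 0.49 in CD90 and 0.73, 1.24, 0.76 and 1.29 in p75. TRKA cells spread from -1.6 to 1.41, and TRKA-TGF cells read 0.29, -1.24, -1.42 and -1.49. TRKA-TGF lay below every CD90 and p75 array, and the calls were -1.89 against CD90 (SE 0.58, adjusted p = 0.0424) and -1.97 against p75 (adjusted p = 0.0345, limma). These calls sit close to the threshold. The CD90 call was lost without any 1 CD90 or p75 array (adjusted p = 0.0531 to 0.11) and without TRKA-TGF array 2, 3 or 4 (0.102, 0.112 and 0.117). The p75 call was lost without any 1 p75 array (0.0569 to 0.0842) and without TRKA-TGF array 2, 3 or 4 (0.0862, 0.0949 and 0.0965). TRKA-TGF against TRKA passed only without TRKA array 3 (-1.6, adjusted p = 0.031), against -1.04 (adjusted p = 0.211) with all arrays.

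Mmp3, Mmp12 and Mmp13 lie together on chromosome 8, and the other genes of that run were mostly not above background on these arrays. The probes of Mmp1, Mmp20 and Mmp27 were well above background on 0 of 16 arrays. Mmp10 was on 1 CD90, 1 p75 and 1 TRKA-TGF array, and Mmp8, the neutrophil collagenase, on 3 TRKA-TGF arrays and none of the others, too few to be tested. Mmp7, matrilysin, was on 15 of 16. Of the 3 members there, Mmp12 was called higher in TRKA than in p75 and neither Mmp3 nor Mmp13 was called; the difference between genes was not tested.

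**Figure D3:**
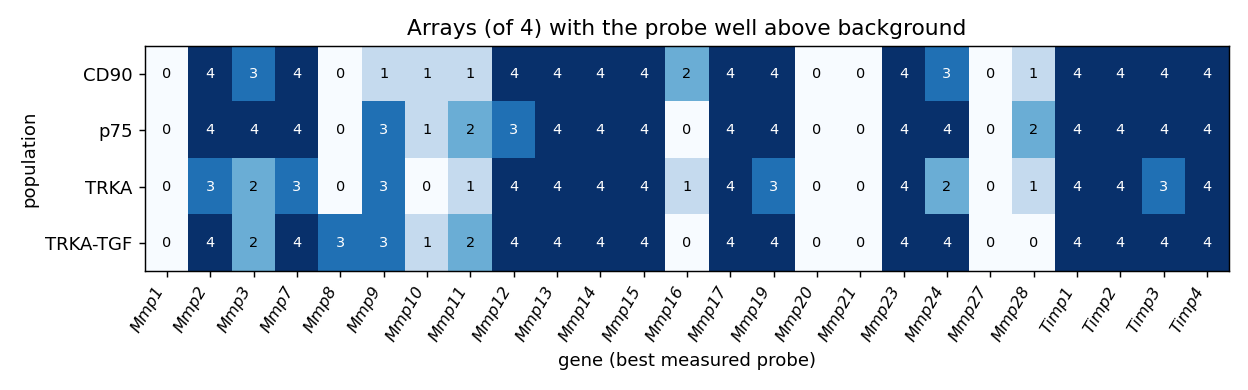
Number of arrays out of 4 (numbers and shade) on which the best measured probe of each metalloproteinase and TIMP gene on the array (columns) was well above background, by population (rows). Among the members, Mmp2, Mmp3, Mmp9, Mmp12 and Timp3 vary between populations, while Mmp13, Mmp14, Timp1 and Timp2 stand at 4 throughout.

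Mmp14, the membrane-type protease, read 2.84, 2.92, 2.94 and 3.01 in CD90 and 2.96, 2.9, 2.79 and 2.97 in p75, and the difference of 0.03 (interval -0.36 to 0.41) did not pass. TRKA cells read 3.55, 3.86, 3.72 and 3.53, and TRKA-TGF cells 2, 2.21, 2.2 and 2.06, below all other arrays. TRKA-TGF fell by 1.55 (SE 0.18, adjusted p = 3.54e-05, limma) against TRKA, by 0.81 against CD90 (adjusted p = 0.00687) and by 0.78 against p75 (adjusted p = 0.00792). The higher level in TRKA than in p75 (0.76, adjusted p = 0.00443) and CD90 (0.74, adjusted p = 0.00554) depends on the scaling: it turned to -0.09 and -0.26 with quantile normalization and to -0.06 and -0.22 in the authors' values, and shrank to 0.22 and 0.18 when arrays were centred on probes above background everywhere. Fitting only the populations compared gave the same differences with adjusted p = 0.0587 and 0.0685. On the array's own ranks, Mmp14 stood between percentiles 94.3 and 94.8 in CD90. It lay between 93.5 and 94.1 in p75, between 93.6 and 93.8 in TRKA, and between 89.4 and 90.7 in TRKA-TGF. The fall in TRKA-TGF against TRKA was -0.73 with quantile normalization (adjusted p = 0.00433).

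**Figure D4:**
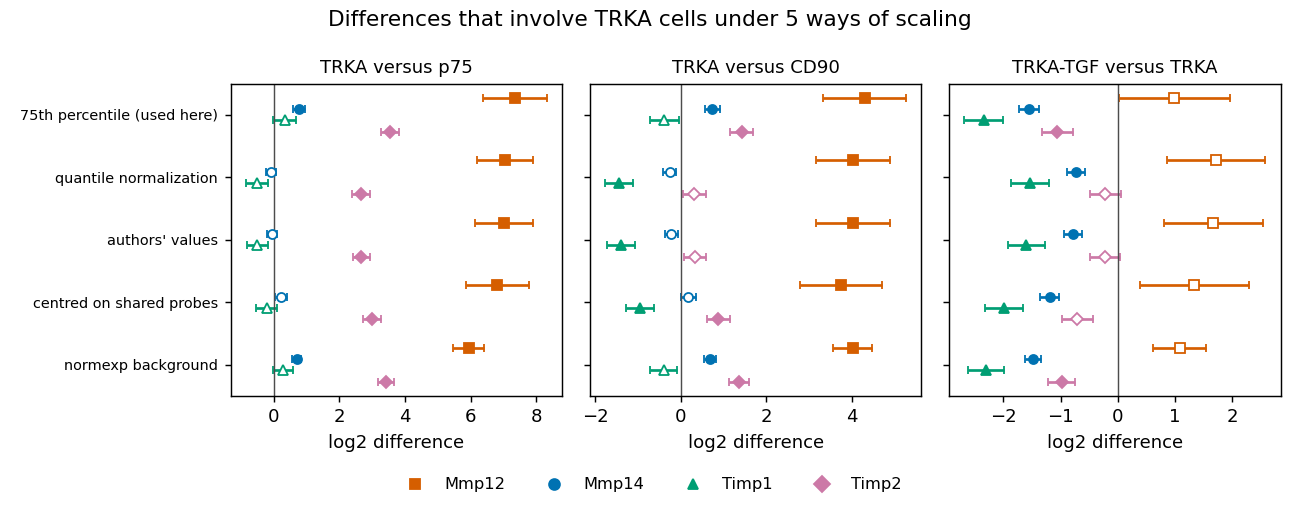
Log2 difference with its standard error (horizontal axis) for Mmp12, Mmp14, Timp1 and Timp2 under 5 ways of scaling (rows) in 3 comparisons with TRKA cells; filled symbols were called. Mmp12 in TRKA stays above 0 in each row, between 3.75 and 4.31 against CD90, whereas Mmp14 in TRKA against CD90 runs from -0.26 to 0.74.

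Timp1, the inducible inhibitor, was lowest in TRKA-TGF cells. CD90 arrays read 4.02, 4.16, 4.37 and 4.26, p75 arrays 3.17, 3.83, 3.69 and 3.28, and TRKA arrays 3.44, 4.63, 3.22 and 3.98. TRKA-TGF arrays read 1.16, 1.11, 2.22 and 1.39, below every other array. The difference was -2.34 against TRKA (SE 0.34, adjusted p = 0.000191), -2.73 against CD90 (adjusted p = 6.48e-05) and -2.02 against p75 (adjusted p = 0.000775). Against TRKA it was -1.54 with quantile normalization. The other 3 comparisons did not pass; TRKA against CD90, -0.39 here, passed with quantile normalization (-1.44, adjusted p = 0.00312), in the authors' values (-1.4, 0.00373) and with centring on probes above background everywhere (-0.95, 0.0387). TRKA against p75, 0.33 here, was -0.52, -0.51 and -0.22 under the same settings, uncalled.

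Timp2, the inhibitor that also assists activation of MMP2, was called in 5 of the 6 comparisons. TRKA arrays read 5.04, 5.31, 5.42 and 5.34, TRKA-TGF arrays 4.43, 4.29, 4.15 and 4.01, CD90 arrays 3.72, 3.91, 3.77 and 3.99, and p75 arrays 2.16, 1.29, 2.32 and 1.2. The 4 populations did not overlap in any pair. Timp2 was higher in CD90 than in p75 (2.11, SE 0.27, adjusted p = 0.000159), the only member called in that comparison. TRKA was also above p75 (3.54, adjusted p = 3.11e-07), as was TRKA-TGF (2.48, adjusted p = 1.77e-05). TRKA against CD90 (1.43, adjusted p = 0.00088) and TRKA-TGF against TRKA (-1.06, adjusted p = 0.0103) were lost with quantile normalization (0.32 and -0.22) and in the authors' values (0.34 and -0.22). The latter was also lost when arrays were centred on probes above background everywhere (-0.71, adjusted p = 0.069). TRKA-TGF against CD90 did not pass (0.37, adjusted p = 0.455). The 3 calls against p75 held under each of the 27 alternatives.

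Timp3, an inhibitor that binds the matrix itself, was highest in p75 cells. It read 1.98, 2.63, 3.18 and 2.54 in p75, above all arrays of the other populations. CD90 read -2.86, -0.34, -1.37 and -5.1, TRKA -5.31, -7.5, -3.46 and 1.28, and TRKA-TGF -5.18, -3.63, -2.28 and -4.95. Timp3 was not well above background on TRKA array 2. It was lower in TRKA than in p75 (-6.33, SE 1.51, adjusted p = 0.0047), and TRKA-TGF differed from p75 by -6.59 (adjusted p = 0.00759). The TRKA value was -5.08 without TRKA array 2 and -8.01 without array 4. In CD90 the difference of -5 did not pass (adjusted p = 0.0649), and it passed under 7 of the 27 alternatives. These were quantile normalization (-5.5, 0.0295), the authors' values (-5.47, 0.038), normexp (-4.42, 0.00601), and an intensity trend with array weights (-5.06, 0.00549). The others were fitting only the compared populations (0.0208) and leaving out TRKA array 2 (0.0338) or 4 (0.00967). The glial markers were highest in the same p75 arrays, and their part in the Timp3 level was not tested.

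Of 32 related genes listed (other metalloproteinases and TIMPs, activators, docking and clearance partners), 30 were on the array and 23 were tested. Counts called higher and lower were 2 and 4 in CD90 against p75, 4 and 5 in TRKA against p75, 6 and 4 in TRKA against CD90, 2 and 0 in TRKA-TGF against TRKA, 5 and 3 in TRKA-TGF against p75, and 5 and 3 in TRKA-TGF against CD90. These are 26.1, 39.1, 43.5, 8.7, 34.8 and 34.8% of the 23 genes, beside 7.25, 35.7, 34.9, 26.4, 15.1 and 14.9% of all genes. Their median differences were -0.63, -1.09, -0.12, 0.07, -0.84 and 0.44, in that order, beside 0.05, -0.01, -0.09, 0.19, 0.14 and 0.15 over all genes. Reck, a membrane-anchored inhibitor of metalloproteinases, was lower in TRKA than in p75 (-7.65, adjusted p = 0.000143) or CD90 (-5.33, adjusted p = 0.00238), and lower in TRKA-TGF than in p75 (-5.61, adjusted p = 0.00355). Plau, the urokinase that activates plasminogen, was higher in TRKA than in p75 (3.96, adjusted p = 5.16e-05). In TRKA-TGF it exceeded p75 by 5.16 (adjusted p = 9.16e-06). TRKA-TGF also exceeded CD90 (3.57, adjusted p = 0.000293). Plg, plasminogen, was higher in TRKA than in CD90 by the probe used (2.67, adjusted p = 0.0325), but a second kept probe read -0.48 (adjusted p = 0.663). Cav1, caveolin, was higher in CD90 than in p75 (4.27, adjusted p = 0.0011) and at least 32.6-fold lower in TRKA (adjusted p = 1.35e-05) and at least 38.5-fold lower in TRKA-TGF (adjusted p = 1.78e-05) than in CD90. The bound sets the CD90 mean against, on each dim array, the lowest signal well above background or the probe's own signal, whichever was higher. Mmp15, a membrane-type protease, was lower in CD90 than in p75 (-4.48, adjusted p = 8.41e-05) and in TRKA-TGF than in p75 (-3.28, adjusted p = 0.000638). Furin, which removes propeptides, was lower in CD90 than in p75 (-3.18, adjusted p = 0.0475). Mmp19 was lower in TRKA than in p75 (-5.32, adjusted p = 0.00882), and Mmp23 lower in TRKA-TGF than in CD90 (-2.72, adjusted p = 0.0179). The 2 calls of TRKA-TGF against TRKA were Adam17, a sheddase (2.05, adjusted p = 0.0273), and Timp4 (1.54, adjusted p = 0.0174).

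The genes whose levels over the 16 arrays were most like each member, by Pearson r among 14137 genes, are a description, since the arrays share populations, slides and depth. For Mmp12 they were Pltp (r = 0.969) and Fcer1g (0.955), and for Mmp2 Pakap (0.95) is given. For Mmp14 they were Egr1 (0.983) and Ier3 (0.981), which read 4.18 and 5.77 in TRKA and -0.91 and 1.83 in TRKA-TGF. For Timp1 they were Thbs1 (0.936) and Slpi-ps1 (0.926), for Timp2 Spp1 (0.983) and Secisbp2 (0.976), and for Timp3 Metrn (0.889) is given. For Mmp13 they were Cnn3 (0.916) and Smtn (0.891). For Mmp3 (Sugp2, 0.861, and Cntrob, 0.813) and Mmp9 (Nudc, 0.794, and Mcts1, 0.766) the member was above background on 11 and 10 of the 16 arrays.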

How the data were processed

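RNA was measured on 16 1-colour arrays, 4 per population. Per the file headers, Agilent Feature Extraction gave each spot a processed signal, an intensity after background subtraction; the headers name version 10.7.3.1 and the submitters' processing notes version 10.5. The authors also deposited a log2 value per probe, which matched quantile-normalized log2 signals centred on each probe's median (r 0.9966 to 0.9992); column medians were -0.0276 to 0.1972.

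Control spots and spots flagged as outliers were left out, spots of a probe were averaged as log2, and the 75th percentile over the 30367 probes was subtracted per array. A probe was kept when well above background on at least 4 of 16 arrays, and a gene was its kept probe with the highest mean. A linear model with 1 mean per population (limma 3.58.1, R 4.3.3) gave the tests, called at an adjusted p under 0.05. Script steps were tested on simulated data. Members, related genes and markers were chosen with earlier results of these data known. Named were the members, up to 3 related genes per comparison with the largest called differences, and the 2 genes most like each member; some genes are not reported here. Of the probes, 18355 were named by accession and 3180 by symbol in the RefSeq table (GRCr8), and 8832 kept the file's name. The percentile was first taken over spots and changed to averaged probes after member values had been seen; the closing section gives both. Alternatives were other scalings, background correction, filters, probe rules and a replicate block. Further ones were fits of the compared populations only, an intensity trend with array weights, and leaving out each array. Over 24 same-numbered pairs of arrays of different populations, deviations from the population mean correlated at r -0.03 to 0.04. For TRKA with TRKA-TGF, r was 0.01 to 0.04 in same-numbered pairs and -0.04 to 0.01 in the others. The number of arrays limits precision.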

Additional observations from a re-analysis of the deposited data

Results flagged for a closer look

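In 5 of 40 sets of 4 arrays (member probe by population), 1 array lay far from the other 3, and chance flags about 1 in 20 such sets. The second Mmp2 probe read 1.43 on TRKA array 2 and -7.68 to -7.34 on the others. Mmp3 read -7.31 on CD90 array 4 and -1.37 to -0.43 on the others, and Mmp9 read -1.03 on CD90 array 3 and -8.42 to -8.03 on the others. Mmp12 read 4.2 on TRKA-TGF array 1 against 3.81 to 3.86. Mmp13 read 0.29 on the same array against -1.49 to -1.24.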

How the results depend on the processing

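Over 11 alternatives to the 54 member differences (594 values), 562 kept direction and side of the threshold, 10 lost it, 12 gained it and 10 reversed. The reversed values were Mmp14 in TRKA against CD90 (-0.26 quantile, -0.22 authors' values) and p75 (-0.09, -0.06), Timp1 in TRKA against p75 (-0.52 quantile, -0.51 authors' values, -0.22 centred on the 10600 probes well above background on all arrays), Mmp3 and Timp3 in TRKA-TGF against TRKA (0.01 and 0.09, same centring) and Mmp9 in CD90 against p75 (0.21, normexp). With single arrays left out, 13 of 864 values reversed, all uncalled, and the ranges were -0.26 to 0.07 (Mmp13), -0.01 to 0.05 (Mmp14) and -1.76 to 0.53 (Mmp3) in CD90 against p75, -1.91 to 1.1 (Mmp3) and -1.51 to 1.41 (Timp3) in TRKA-TGF against TRKA, and -0.29 to 1.96 (Mmp9) in TRKA-TGF against p75. Members called in CD90 against p75, 1 here, were 3 with quantile normalization, normexp or only the compared populations. They were 2 with the authors' values or with the intensity trend and array weights. The cause was not tested. Leaving out single arrays gave 1 to 2 (CD90 against p75; 2 without p75 array 2 or 4 or TRKA array 2 or 4), 5 to 5 (TRKA against p75), 4 to 4 (TRKA against CD90), 3 to 4 (TRKA-TGF against TRKA), 6 to 7 (against p75) and 4 to 5 (against CD90). With the replicate block the counts were 1, 5, 4, 3, 7 and 4, where Mmp13 in TRKA-TGF against CD90 was lost (adjusted p = 0.0501); 8 of 16 arrays correlated best with their own number. Scaling moved the median of all genes in TRKA against p75 from -0.01 to 0.31 (quantile) or -0.56 (centred), and the share of calls that were higher from 52.7 to 62.2 or 32.9%. In TRKA against CD90 that share went from 52.3 to 61.3 or 33%, and in TRKA-TGF against TRKA from 51.1 to 39.2 or 66.6%. The percentile over spots, which was used first and was listed as an alternative after seeing the data, called 7156 genes in TRKA against p75 where 7352 were called here, and the member counts did not move. Mmp3 and Mmp9 were well above background on 11 and 10 of 16 arrays.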
